A study of Homo sapiens with 17 samples.

Results

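The genes described here are 9 interferon-induced genes and RNA sensors, IFIT1, IFIT2, IFIT3, IFIT5, ISG15, OAS3, MX1, IFIH1 and RIGI, followed through ribosome footprints and mRNA of edited HEK293 cells. They were chosen by name, and at least 1 transcript was matched for 7 of them at 36 h, among 15660 genes with any count, and for all 9 at 72 h, among 17023. The ISG15 and IFIH1 transcripts listed at 36 h were not matched to a gene and were not analysed here at that time point. HEK293 is a human embryonic kidney line that grows as an epithelial-like culture. The cells were electroporated with a ribonucleoprotein of nuclease and sgIntron, a guide to intron 12 of JAK2, at 300 pmol each per the labels, while the methods of the study also describe a smaller reaction. The nuclease was Cas9, which cuts its target, or catalytically dead dCas9, which binds the same target without cutting, and serves as the control. All arms thus received foreign RNA and protein, and none of the libraries used here came from untreated cells. The guides of the 36 h experiment were synthetic and those of the 72 h experiment were made by transcription in vitro, in Cas9 and dCas9 cells alike, a choice the study made because of published reports that guides transcribed in vitro provoke interferon responses. Reads of the time points were also aligned with different programs to different annotation releases, so time, guide source and processing cannot be told apart in any comparison of 72 h with 36 h. The 17 libraries comprised mRNA from 3 Cas9 and 2 dCas9 cultures at 36 h and from 2 of each at 72 h, and footprints from 2 cultures of each nuclease at each time point. Each replicate was a pool of electroporations of the line. The study divided its lysates between footprints and mRNA, so libraries of the 2 types can share a lysate.

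RNA that looks foreign, for example because it carries a 5′ triphosphate or forms long duplexes, is recognised in the cytoplasm by the helicases RIG-I (gene RIGI) and MDA5 (gene IFIH1). These signal through MAVS to the factors IRF3 and NF-kappaB, which switch on type I and type III interferons. Secreted interferon acts through its receptor, the kinases JAK1 and TYK2 and transcription factors that bind interferon-stimulated response elements in the promoters of its target genes. Among these targets are the sensors themselves, the IFIT proteins that bind viral or unmodified RNA, the oligoadenylate synthetases such as OAS3 that activate RNase L, the GTPase MX1 that traps viral nucleocapsids, and ISG15, a ubiquitin-like modifier.

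Coordinates are those of hg38. IFIT2, IFIT3, IFIT1 and IFIT5 lie close together in this order on the plus strand of chromosome 10, at 89283694-89309271, 89327307-89377473, 89392546-89406487 and 89414568-89421605. ISG15 lies at chr1:1001138-1014540, OAS3 at chr12:112938051-112976460 and MX1 at chr21:41420020-41470071, all on the plus strand. IFIH1 (chr2:162267074-162318684) and RIGI (chr9:32455302-32526208) are on the minus strand.

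The promoters of IFIT1, IFIT3, IFIT5 and ISG15 are shown because they hold matches to the core of the same response element, and yet these genes differed in mRNA level at 72 h. RefSeq promoters (GRCh38.p14, 250 bases before to 50 after a start) were matched for 8 of the 9 genes, with 11 entries in all, and IFIT2 had none in the table. The core of the response element, GAAA followed by any 2 bases (NN) and a further GAAA, searched on either strand, was found in 9 of these 11 entries, in 7 of the 8 genes, against 3.57% of all 35116 promoters. RIGI held no match in this window. The stretches below lie before the start and read 5′ to 3′ along the gene, with matches to the core, which may overlap each other, in capitals.
IFIT1 (chr10:89392487-89392549): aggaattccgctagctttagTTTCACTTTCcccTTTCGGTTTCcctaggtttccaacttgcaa
IFIT3 (chr10:89332415-89332507): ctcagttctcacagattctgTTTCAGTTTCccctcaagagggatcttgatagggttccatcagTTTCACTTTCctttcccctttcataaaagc
IFIT5 (chr10:89414503-89414567): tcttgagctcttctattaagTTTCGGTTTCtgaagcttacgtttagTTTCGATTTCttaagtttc
ISG15 (chr1:1013364-1013419): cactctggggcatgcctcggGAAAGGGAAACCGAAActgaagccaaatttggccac
In IFIT1 the first match begins 116 bases before the start, in ISG15 113 and in IFIT5 45, and each of these stretches holds 2 matches. For IFIT3, which has 2 promoter entries, the stretch before the downstream start is shown, where the first match begins 94 bases before the start. A match in letters is a description of the sequence and no measurement of binding.

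Depth differed widely between library types. Over the transcripts kept, mRNA libraries held 25095505 to 33350952 reads at 36 h and 33040306 to 42825659 at 72 h, while footprint libraries held 689636 to 4868580 and 3183558 to 8864461. Levels are given as CPM, the usual depth-normalised read count, which sets the reads of a gene against all reads of its library over the genes tested, scaled by edgeR's TMM factors, so that 1 read was worth 0.0240 to 0.0394 CPM in mRNA but up to 1.46 CPM in the shallowest footprint library, dCas9 replicate e of 36 h. Genes were called at a Benjamini-Hochberg adjusted p under 0.1 in edgeR's quasi-likelihood test over every gene whose mean count reached 10. The HEK293 marker VIM stood at 612 to 1034 CPM in mRNA, and the T cell marker CD3E had no read in any library. PAX2, a kidney lineage marker, was at most 0.33 CPM in mRNA and at most 2.07 in footprints. CD14, listed as a marker of other cell types, had a mean of 0.656 CPM in mRNA at 72 h. COL1A1, from the same list, had a mean of 7.01 CPM in mRNA at 36 h and 4.21 at 72 h. In footprints its mean was higher, 12.6 CPM at 36 h and 22.4 at 72 h. JAK2, which the guide targets in an intron, was at 4.16 to 8.13 CPM in mRNA at 36 h and 6.84 to 11.3 at 72 h, with overlap between Cas9 and dCas9 at both times. A cut in an intron need not change the mRNA, so JAK2 does not check the labels.

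Only IFIT5 had a mean mRNA level per length above the median of all genes tested, and 6 of the 9 genes were tested in footprints at neither time, IFIH1 and ISG15 because they were not analysed at 36 h and had few footprints at 72 h, the others because of few footprints. To compare genes, CPM was divided by the counted coding length. At 72 h IFIT5 led with a mean of 33.5 CPM per kb of mRNA (SD 4.27, n = 4) against a median of 17.2 over all genes tested. ISG15 followed at 6.61 (SD 1.13), then IFIT1 at 4.97 (SD 0.613) and RIGI at 4.18 (SD 0.656), all near the lower quartile of all genes, 4.78 CPM per kb. IFIT3 stood at 1.11 (SD 0.0902) and IFIH1 at 1.01 (SD 0.142). MX1 at 0.274 (SD 0.0784), OAS3 at 0.220 (SD 0.119) and IFIT2 at 0.190 (SD 0.0667) closed the order. IFIT5 lay above ISG15, and ISG15 above IFIT1, in every library. IFIT1 and RIGI overlapped, as did IFIT3 with IFIH1 and the last 3 genes with each other. The 4 IFIT genes, close together on the chromosome, thus took both ends of the order.

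**Figure D1:**
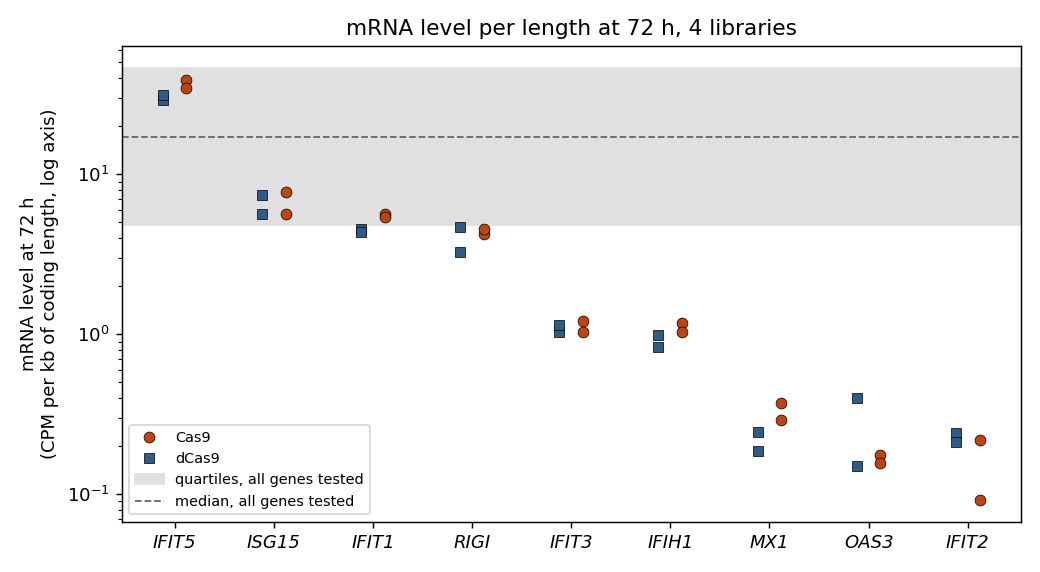
mRNA level of the 9 genes at 72 h in CPM per kb of counted coding length (log axis), 1 point for each of the 4 libraries (circles Cas9, squares dCas9), with the median (dashed, 17.2) and quartiles (grey) of all genes tested. IFIT5 alone lies above the median, and MX1, OAS3 and IFIT2 lie below 0.4 CPM per kb.

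RIGI, the sensor of triphosphate-bearing RNA, was well measured in mRNA. At 36 h its mRNA was at 9.31, 10.0 and 7.62 CPM in Cas9 replicates a, b and c and at 9.01 and 8.05 in dCas9 replicates d and e. At 72 h it was at 11.4 and 12.4 CPM in Cas9 replicates a and b and at 8.82 and 12.7 in dCas9 replicates a and b. The ranges of Cas9 and dCas9 overlapped at both times, and those of the time points overlapped through the lower dCas9 library of 72 h. Cas9 against dCas9 gave a log2 fold change of 0.07 (adjusted p = 0.998, SE 0.25) at 36 h and 0.14 (adjusted p = 0.755, SE 0.18) at 72 h. From 36 to 72 h the log2 fold change was 0.34 (adjusted p = 0.319, SE 0.22) in dCas9 cells and 0.41 (adjusted p = 0.143, SE 0.20) in Cas9 cells, and neither was called. Without dCas9 replicate b of 72 h, the highest library, Cas9 against dCas9 at 72 h gave 0.44, which rests on a lone dCas9 library.

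RIGI footprints were few. At 36 h there were 0 and 6 reads in Cas9 replicates a and c and 13 and 1 in dCas9 replicates d and e, or 0, 2.39, 2.61 and 1.46 CPM. At 72 h there were 15 and 36 reads in Cas9 replicates e and f and 30 and 33 in dCas9 replicates e and f, or 4.81, 6.22, 4.56 and 3.83 CPM. All 4 libraries of 72 h lay above all 4 of 36 h, a separation that 9.52% of all 11218 genes tested in footprints showed in this direction. The log2 fold change was 0.84 (adjusted p = 0.796, SE 0.90) in dCas9 cells and 1.80 (adjusted p = 0.429, SE 0.98) in Cas9 cells. Leaving out 1 library gave 0.67 to 1.5 in dCas9 and 1.21 to 7.62 in Cas9 cells, the last without Cas9 replicate c of 36 h, which leaves a lone library with no RIGI read, and no value was called. The difference was thus not detectable by the test at this depth. The ratio of footprint to mRNA CPM was 0.389 in dCas9 and 0.462 in Cas9 cells at 72 h, below the lower quartile of all genes (0.558 and 0.533).

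IFIH1, the gene of the long-duplex sensor MDA5, was counted at 72 h on a short transcript of 202 codons, and its level describes that transcript. In mRNA it was at 0.712 and 0.624 CPM in Cas9 cells and at 0.503 and 0.600 in dCas9 cells, with 17 to 25 reads a library. Its footprints amounted to 1 and 7 reads in Cas9 and 15 and 10 in dCas9 cells, too few for the test. Both Cas9 mRNA libraries lay above both dCas9 libraries, as for 23.2% of all genes at 72 h, but the log2 fold change of 0.27 (adjusted p = 0.784, SE 0.39) was within the error.

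IFIT1, which binds RNA that lacks the cap modifications of host mRNA, was the only member called in any comparison when all libraries were used. Its mRNA was at 2.34, 2.92 and 3.22 CPM in Cas9 replicates a, b and c of 36 h and at 3.62 and 1.83 in dCas9 replicates d and e. At 72 h it was at 7.71 and 7.40 CPM in Cas9 replicates a and b and at 6.27 and 5.98 in dCas9 replicates a and b. Every library of 72 h exceeded every library of 36 h, in reads from 54 to 107 against 212 to 260, and 11.6% of the 13440 genes tested separated in this direction. IFIT1 mRNA rose from 36 to 72 h by a log2 fold change of 1.18 (adjusted p = 0.0279, SE 0.33) in dCas9 cells and of 1.42 (adjusted p = 0.00208, SE 0.29) in Cas9 cells.

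That rise was present with and without cutting. The difference of the Cas9 effect between the time points was 0.24 (adjusted p = 0.899, SE 0.44), so the rise was not shown to differ between Cas9 and dCas9 cells. In Cas9 cells the call held under each of the 15 alternatives run, with adjusted p from 2.14e-05 to 0.0358. In dCas9 cells it was lost without dCas9 replicate e of 36 h, the lowest library (log2 fold change 0.76, adjusted p = 0.149), and without dCas9 replicate b of 72 h (1.21, adjusted p = 0.152). Without dCas9 replicate d of 36 h the fold change was 1.74 (adjusted p = 0.00567). IFIT1 was 1 of 6 members called in each of these comparisons, against 23.2% of all genes called in dCas9 cells and 35.6% in Cas9 cells, so that the share of members called did not exceed the background.

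Between Cas9 and dCas9 cells IFIT1 gave a log2 fold change of 0.05 (adjusted p = 0.998, SE 0.50) at 36 h. At 72 h it was 0.30 (adjusted p = 0.443, SE 0.17), with both Cas9 libraries above both dCas9 libraries, a separation that 23.2% of all genes showed in this direction. Its footprints counted 6 and 5 reads in Cas9 and 17 and 0 in dCas9 cells at 36 h, and 27 and 26 in Cas9 and 27 and 32 in dCas9 cells at 72 h. In the same order these were 6.29, 1.99, 3.42 and 0 CPM at 36 h, and at 72 h they were 8.66, 4.49, 4.11 and 3.71 CPM, so the time points overlapped through the shallow Cas9 library of 36 h. The footprint fold changes of 72 h against 36 h, 0.62 in dCas9 (adjusted p = 0.855, SE 0.93) and 0.82 in Cas9 cells (adjusted p = 0.758, SE 0.96), had errors too wide to tell the mRNA rise from no change. Leaving out 1 library gave 0.19 to 6.99 in dCas9 cells, the last without replicate d of 36 h, which leaves a lone library with no IFIT1 read, and 0.027 to 1.67 in Cas9 cells, the lowest without replicate c of 36 h.

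**Figure D2:**
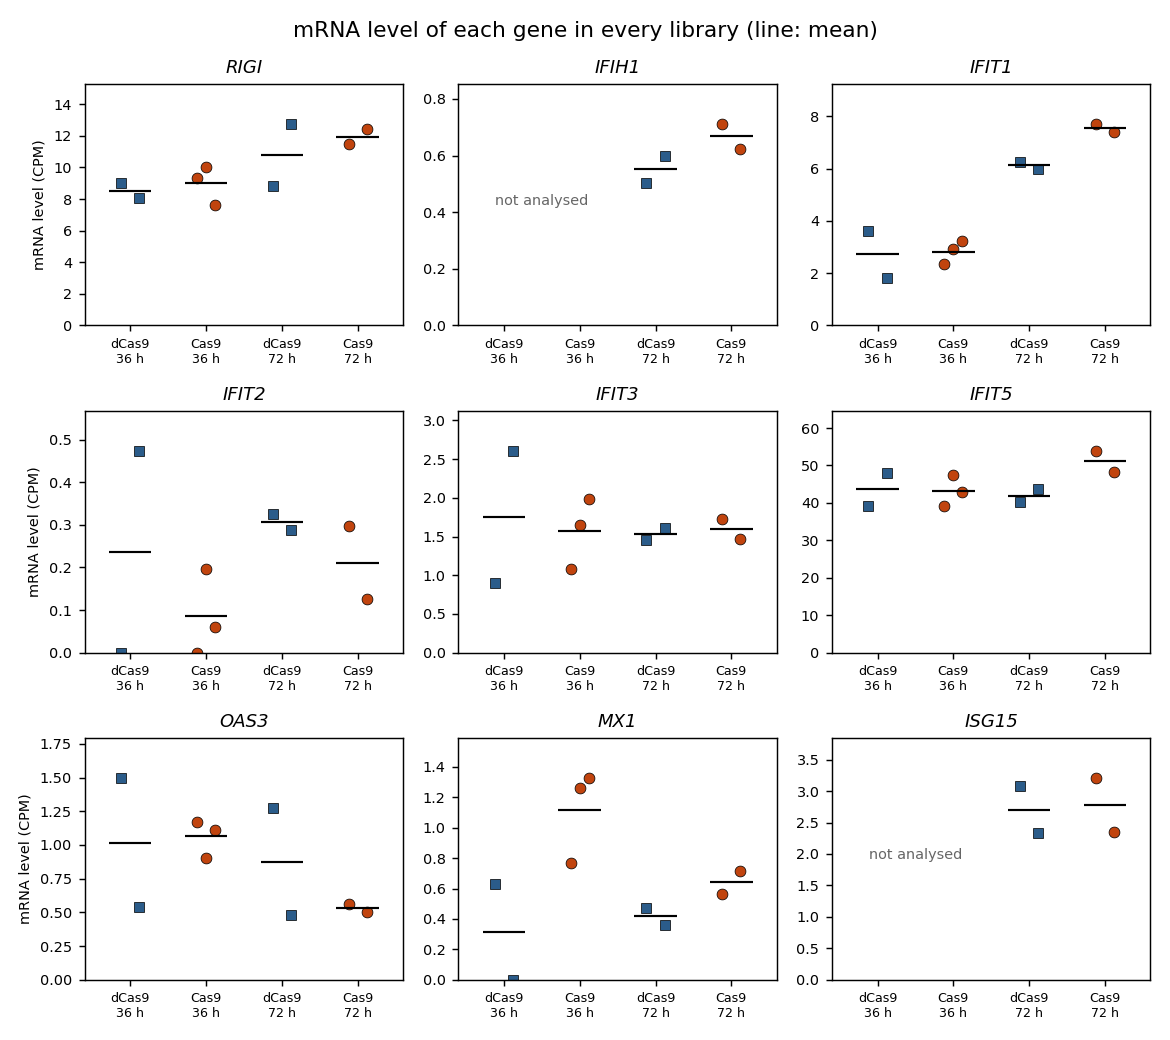
mRNA level (CPM) of each gene in every library by nuclease and time point, with the mean of each group as a line; axes start at 0 and differ between panels. IFIT1 lies between 1.83 and 3.62 CPM at 36 h and between 5.98 and 7.71 at 72 h, whereas the points of the other 6 genes with both time points overlap.

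IFIT2, a partner of IFIT1 and IFIT3 in RNA-binding complexes, was almost silent. Its mRNA gave 0, 5 and 2 reads in the Cas9 libraries of 36 h and 0 and 14 in the dCas9 libraries, and 10 and 4 in Cas9 and 11 and 12 in dCas9 libraries of 72 h. Footprints were 0 in 7 of 8 libraries and 3 reads in dCas9 replicate e of 72 h. No group stood apart and the gene did not reach the count minimum in any comparison. At 72 h its mRNA level was at most 0.326 CPM.

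IFIT3, which stabilises IFIT1 on RNA, kept a low level. At 36 h its mRNA was at 1.08, 1.65 and 1.99 CPM in Cas9 replicates a, b and c and at 0.905 and 2.60 in dCas9 replicates d and e. At 72 h it was at 1.72 and 1.47 in Cas9 and 1.45 and 1.61 in dCas9 cells. The values of 72 h all lay inside the range of 36 h, and the log2 fold changes of -0.20 in dCas9 (adjusted p = 0.846, SE 0.57) and 0.02 in Cas9 cells (adjusted p = 0.984, SE 0.53) were within the error. Cas9 against dCas9 gave -0.17 (SE 0.71) at 36 h and 0.06 (SE 0.27) at 72 h, neither called. Its footprints were 0, 0, 8 and 0 reads at 36 h and 5 to 14 at 72 h and were not tested. IFIT3 lies close to IFIT1 and carries the same core motif, yet only IFIT1 passed the test, a difference between the genes that was itself not tested.

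IFIT5, an IFIT protein that binds triphosphate RNA on its own, was the one member with ample reads in both library types. Its mRNA was at 39.1, 47.5 and 43.0 CPM in Cas9 and 39.2 and 48.0 in dCas9 cells of 36 h. At 72 h it was at 53.8 and 48.3 in Cas9 and 40.1 and 43.7 in dCas9 cells. Both Cas9 libraries of 72 h lay above both dCas9 libraries, with a log2 fold change of 0.29 (SE 0.14, unadjusted p = 0.055 in edgeR, adjusted p = 0.386) that was not called. Without dCas9 replicate b of 72 h, which left a lone dCas9 library, it was 0.35. At 36 h the Cas9 and dCas9 values overlapped, with a log2 fold change of -0.02 (adjusted p = 0.998, SE 0.14). The change from 36 to 72 h was -0.06 (adjusted p = 0.817, SE 0.14) in dCas9 and 0.24 (adjusted p = 0.180, SE 0.13) in Cas9 cells. The SE of these 4 fold changes, 0.13 to 0.14, was the smallest among the members.

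IFIT5 footprints were at 47.2 and 40.6 CPM in Cas9 and 32.4 and 26.2 in dCas9 cells of 36 h, from 45, 102, 161 and 18 reads. At 72 h they were at 27.9 and 28.1 in Cas9 and 30.9 and 30.9 in dCas9 cells, from 87 to 266 reads. Both Cas9 libraries of 36 h lay above both dCas9 libraries, as for 15.5% of all genes tested, and above all libraries of 72 h. Against dCas9 cells of 36 h the log2 fold change was 0.56 (adjusted p = 0.999, SE 0.44), and from 36 to 72 h in Cas9 cells it was -0.63 (SE 0.27, unadjusted p = 0.035 in edgeR, adjusted p = 0.290). Neither was called. The ratio of footprint to mRNA CPM was 1.02 in Cas9 and 0.672 in dCas9 cells at 36 h and 0.549 and 0.737 at 72 h, within the quartiles of all genes. Translational efficiency, the ratio of footprints to mRNA, differed between Cas9 and dCas9 by 0.54 on the log2 scale at 36 h (adjusted p = 0.817, SE 0.33) and by -0.42 at 72 h (adjusted p = 0.461, SE 0.20), and the direction changed between the time points without either passing the test.

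**Figure D3:**
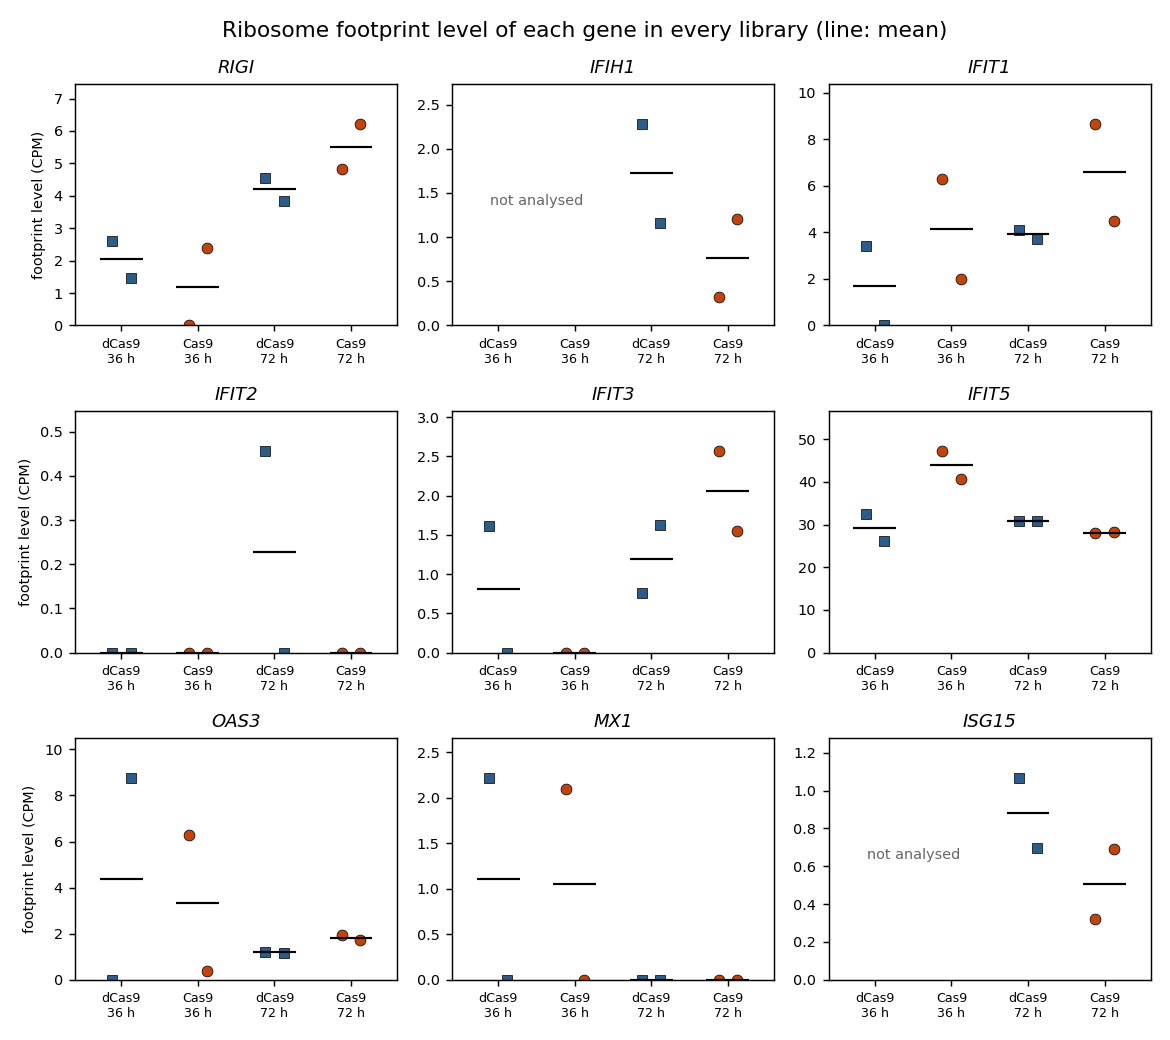
Ribosome footprint level (CPM) of each gene in every library by nuclease and time point, with group means as lines; axes start at 0 and differ between panels. RIGI lies below 2.7 CPM in all 4 libraries of 36 h and above 3.8 in all 4 of 72 h, IFIT5 is highest in the Cas9 libraries of 36 h, and MX1 is at 0 throughout 72 h.

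OAS3, which makes the oligoadenylates that activate RNase L, was low. Its mRNA was at 1.17, 0.906 and 1.11 CPM in Cas9 and 1.5 and 0.541 in dCas9 cells of 36 h, and at 0.564 and 0.50 in Cas9 and 1.27 and 0.480 in dCas9 cells of 72 h. The dCas9 libraries spanned a wider range than the Cas9 libraries at both times. From 36 to 72 h the Cas9 cells gave a log2 fold change of -1.0 (adjusted p = 0.310, SE 0.69) that was not called. Cas9 against dCas9 at 72 h was not called with all libraries (log2 fold change -0.68, adjusted p = 0.537, SE 0.47). It gave -1.25 without dCas9 replicate b, the lower library, which left a lone dCas9 library. Its footprints counted 0 to 6 reads at 36 h and 6 to 10 at 72 h. At 72 h the ratio of footprint to mRNA CPM was 3.44 in Cas9 and 1.36 in dCas9 cells, above the upper quartiles of all genes, 1.33 and 1.28, from 16 and 18 footprint reads.

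MX1 mRNA gave 25, 32 and 44 reads in Cas9 and 16 and 0 in dCas9 libraries of 36 h, or 0.771, 1.26, 1.33, 0.629 and 0 CPM. At 72 h it gave 19 and 23 reads in Cas9 and 16 and 15 in dCas9 cells, or 0.564, 0.718, 0.474 and 0.360 CPM. At both times every Cas9 library lay above every dCas9 library, as for 9.29% of all genes at 36 h and 23.2% at 72 h, but the log2 fold changes of 1.84 at 36 h (adjusted p = 0.998, SE 1.12) and 0.63 at 72 h (adjusted p = 0.529, SE 0.42) were not called. Without dCas9 replicate d of 36 h the log2 fold change at 36 h was 8.08, which then rests on the single dCas9 library with no MX1 read. Against that lone library the change from 36 to 72 h in dCas9 cells was 6.78. The difference of the Cas9 effect between the time points was then -7.57. Neither of these 2 comparisons was called with all libraries. Footprints amounted to 2, 0, 11 and 0 reads at 36 h. At 72 h none of the 4 libraries held a footprint on MX1, which allows a level of up to 0.963 CPM in the shallowest of them (3 reads). This limit covers counting error only.

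ISG15 was counted at 72 h on a transcript of 138 codons, and its level, per length as well, describes that transcript. It was at 3.2 and 2.34 CPM of mRNA in Cas9 and 3.08 and 2.33 in dCas9 cells of 72 h, from 75 to 108 reads. Both nucleases thus had 1 higher and 1 lower library, and the log2 fold change was 0.05 (adjusted p = 0.947, SE 0.25). Its footprints counted 1 and 4 reads in Cas9 and 7 and 6 in dCas9 cells. The ratio of footprint to mRNA CPM, 0.182 in Cas9 and 0.326 in dCas9 cells, lay below the lower quartile of all genes at each nuclease.

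Taken as a list, the members gave no call between Cas9 and dCas9. In mRNA, 0 of 6 members tested were called at 36 h, against 0.00747% of all genes (1 of 13387), and 0 of 8 at 72 h, against 2.23% (307 of 13764, of which 304 were lower in Cas9 cells). In footprints it was 0 of 1 at 36 h, where 0% of genes were called, and 0 of 3 at 72 h, against 0.0336%. Translational efficiency gave 0 of 1 at 36 h, where 0% of genes were called, and 0 of 3 at 72 h, against 0.658%. No member had an unadjusted p under 0.05 in edgeR in any of these comparisons, and DESeq2 called none of them either. At 72 h 4 of the 8 members, IFIH1, IFIT1, IFIT5 and MX1, had both Cas9 mRNA libraries above both dCas9 libraries, against 23.2% of all genes. Over all genes the unadjusted p was under 0.05 for 203 in footprints and for 691 in translational efficiency at 36 h, the comparisons with no call.

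Between the time points the median log2 fold change of the 6 members tested in mRNA was 0.14 in dCas9 and 0.13 in Cas9 cells, beside 0.01 and -0.01 over all genes tested. In footprints edgeR and DESeq2 called 0 of 3 members, against 1.59% of genes in dCas9 and 2.82% in Cas9 cells, with only IFIT5 in Cas9 cells at an unadjusted p under 0.05. The Cas9 effect differed between the time points for 0 of 6 members in mRNA, against 0.238% of genes, and for 0 of 3 in footprints, against 0%. None of these members had an unadjusted p under 0.05 in edgeR, and DESeq2 called none. Over all genes in footprints 386 had an unadjusted p under 0.05.

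**Figure D4:**
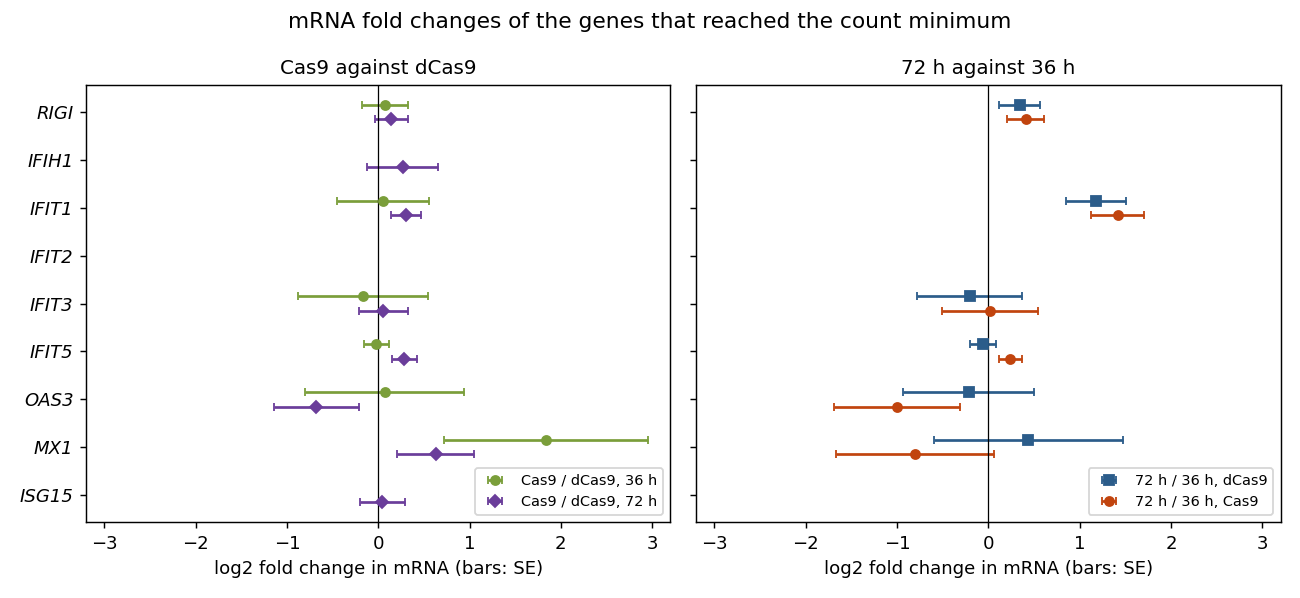
log2 fold changes in mRNA with their SE for the members that reached the count minimum, Cas9 against dCas9 on the left and 72 h against 36 h on the right. Only IFIT1 was called, at 1.18 in dCas9 and 1.42 in Cas9 cells, in the comparison of time points, where guide source and processing also differed.

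The rest of the interferon pathway was examined through 6 lists with 98 genes, none of them a member. The ligands came first. IFNB1 had no read in any of the 17 libraries, which allows at most 0.118 CPM of mRNA in the shallowest mRNA library (3 reads). IFNL1 had 1 read in all, a footprint in dCas9 replicate e of 72 h. IFNB1 and IFNL1 mRNA were thus not detectable at this depth, with guides of either source. The receptor chains IFNAR1 (9.15 to 20.2 CPM of mRNA at 72 h) and IFNAR2 (8.01 to 11.8) and the adaptor MAVS (29.4 to 36.7) were all expressed. These 5 genes were named for their roles, after their values were known. Of the 98 genes, 8 had under 3 reads in every mRNA library.

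No gene of the 6 lists was called by edgeR between Cas9 and dCas9 in mRNA, footprints or translational efficiency at either time, while between 0 and 8 of the 49 to 74 tested had an unadjusted p under 0.05 and DESeq2 called 1, in mRNA at 72 h. Between the time points 74 of them could be tested in mRNA. In dCas9 cells 10 were higher at 72 h and 7 lower, with a median log2 fold change of -0.03 beside 0.01 for all genes, of which 12.4% were called higher and 10.8% lower. In Cas9 cells 13 were higher and 12 lower, with a median of 0.01 beside -0.01 for all genes, of which 18.1% were called higher and 17.5% lower. The pathway thus split in both directions, as all genes did. For the difference of the Cas9 effect in mRNA between the time points, edgeR called 0 of the 74 genes and DESeq2 1. With edgeR no change of a list gene was thus shown to differ between the arms.

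Of 8 genes around ISG15 conjugation and ADP-ribosylation, 3 were higher and none lower in dCas9 cells and 4 higher and none lower in Cas9 cells. Over all genes tested 12.4% were called higher and 10.8% lower in dCas9 cells, and 18.1% and 17.5% in Cas9 cells. These shares are the background for each list below as well, and no list was tested as a set. PARP14, an ADP-ribosyltransferase, rose from 18.4 ± 2.63 to 30.4 ± 6.10 CPM (SD, n = 2 each) in dCas9 cells, a log2 fold change of 0.72 (adjusted p = 0.0180, SE 0.18). In Cas9 cells it rose from 21.2 ± 3.47 (n = 3) to 36.4 ± 0.163 (n = 2), a log2 fold change of 0.78 (adjusted p = 0.00239, SE 0.16). HERC5, the main ISG15 ligase, rose in both by a log2 fold change of 0.47 and 0.41. The others were UBE2L6, the ISG15-conjugating enzyme, in dCas9 cells, where the libraries of 36 h held 0 and 5 reads, and DTX3L and HERC6, a ubiquitin ligase and a relative of HERC5, in Cas9 cells. UBE2L6 was not called in Cas9 cells. Its mRNA there was at 0.925, 0.315 and 1.11 CPM at 36 h and at 0.860 and 0.656 at 72 h. HERC5, UBE2L6, DTX3L and HERC6 were named after their values were seen.

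Of 9 antigen presentation genes tested, 2 were higher and 1 lower in dCas9 and 3 higher and none lower in Cas9 cells. B2M, the light chain of class I molecules, rose in Cas9 cells from 66.0 ± 4.33 to 119 ± 0.254 CPM, a log2 fold change of 0.85 (adjusted p = 1.01e-04, SE 0.12), and TAP1, a subunit of the peptide transporter, by 0.66 (adjusted p = 0.00667, SE 0.16). Both were called higher in dCas9 cells too, B2M by 0.42 (adjusted p = 0.0410, SE 0.13) and TAP1 by 0.49 (adjusted p = 0.0773, SE 0.18). PSMB10, an immunoproteasome subunit, fell in dCas9 cells by 0.94 on the log2 scale (adjusted p = 0.00616, SE 0.20). In Cas9 cells no gene of the lists was called in footprints by edgeR, with 7 at an unadjusted p under 0.05, and 1 by DESeq2. B2M footprints, at 107 CPM in Cas9 cells at both times, did not show the rise of its mRNA.

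Of 25 antiviral effectors tested, 4 were higher and 1 lower in dCas9 and 4 higher and 3 lower in Cas9 cells. EIF2AK2, the kinase PKR that is activated by duplex RNA, rose in dCas9 cells from 24.5 ± 0.201 to 48.3 ± 21.7 CPM, a log2 fold change of 0.98 (adjusted p = 0.0123, SE 0.23). In Cas9 cells it was called higher too, by 0.66 (adjusted p = 0.0267, SE 0.21). SAMD9, an antiviral factor, rose in Cas9 cells from 6.23 ± 1.10 to 13.7 ± 5.50 CPM, a log2 fold change of 1.14 (adjusted p = 0.00553, SE 0.27), and PML, the scaffold of nuclear bodies, fell there by 0.93 (adjusted p = 0.00244, SE 0.20). DDX60L, a helicase-like gene, and IFI44L were called higher in dCas9 cells because both dCas9 libraries of 36 h held no read. Against the limit of 3 reads over that group, their mean levels at 72 h, 0.604 and 0.713 CPM, were at least 11-fold and at least 13-fold higher. These bounds cover counting error at 36 h only, and not the spread between cultures. In Cas9 cells DDX60L was at 0.197 to 0.247 CPM at 36 h and IFI44L at 0 to 0.433, so both genes had reads at 36 h in the other arm. IFI44L was called higher in Cas9 cells too (log2 fold change 2.28, adjusted p = 0.0958, SE 0.97).

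Of 12 sensing and signalling genes, none was higher and 2 were lower in dCas9 and 1 was higher and 4 lower in Cas9 cells. IRF3, the factor activated downstream of the RNA sensors, fell in dCas9 cells (log2 fold change -0.72, adjusted p = 0.00413, SE 0.14). Its level there was 75.3 ± 5.99 CPM at 36 h and 48.5 ± 6.05 at 72 h. These CPM were counted on transcripts of different coding length, the fold change on a transcript listed at both times. In Cas9 cells IRF3 was called lower too (log2 fold change -0.46, adjusted p = 0.0147, SE 0.13). TRIM25, a ligase described as an activator of RIG-I, and STING1, the adaptor of DNA sensing, fell in Cas9 cells by 0.65 (adjusted p = 0.00250, SE 0.14) and 0.97 (adjusted p = 0.00387, SE 0.22) on the log2 scale. Of 15 interferon, receptor and JAK-STAT genes, 1 was higher and 2 lower in dCas9 and 1 higher and 3 lower in Cas9 cells. STAT2 fell in dCas9 cells from 26.1 ± 3.77 to 13.2 ± 0.539 CPM (log2 fold change -0.98, adjusted p = 0.00125, SE 0.16), and the kinase TYK2 fell in Cas9 cells by 0.44 (adjusted p = 0.00387, SE 0.10). Both were called lower in the other arm too. The log2 fold change was -0.59 for STAT2 in Cas9 cells (adjusted p = 0.00812, SE 0.15) and -0.40 for TYK2 in dCas9 cells (adjusted p = 0.0222, SE 0.11). Of 5 NF-kappaB targets tested, none was higher, 1 was lower in dCas9 and 2 in Cas9 cells. RELB, an NF-kappaB subunit, fell in dCas9 cells by 1.28 (adjusted p = 0.0180, SE 0.33). In Cas9 cells it was called lower too (log2 fold change -0.88, adjusted p = 0.0384, SE 0.30).

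**Figure D5:**
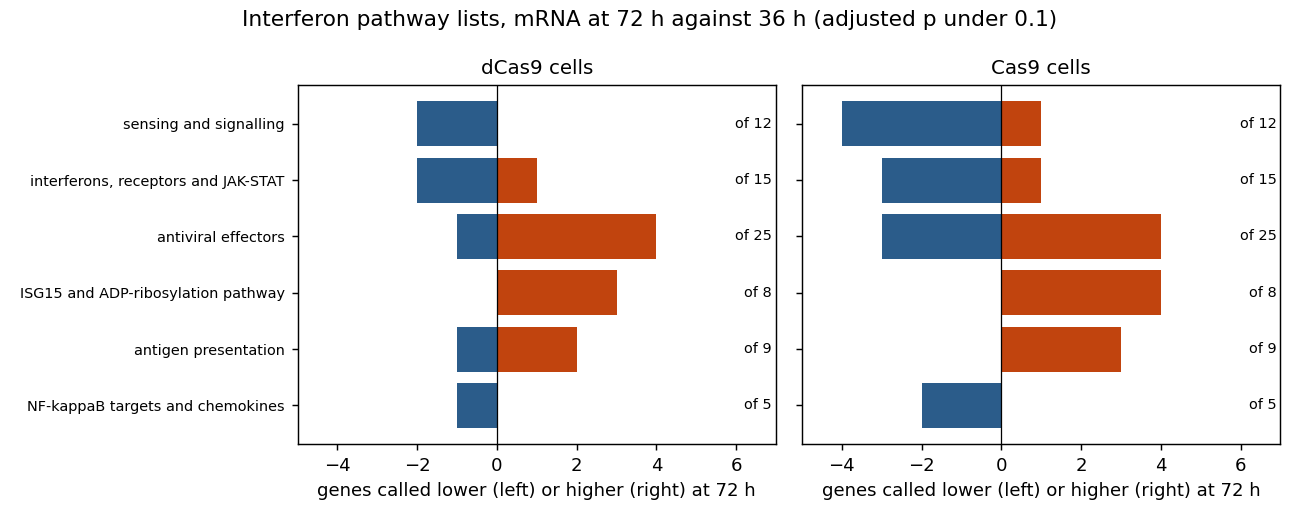
Number of genes of each interferon pathway list called higher (right) or lower (left) in mRNA at 72 h against 36 h in dCas9 and Cas9 cells, beside the number tested. The ISG15 and ADP-ribosylation list has calls to the right only (3 and 4 of 8), and the sensing and signalling list has 2 and 4 of 12 to the left. Over all genes 12.4% were called higher and 10.8% lower in dCas9 cells, and 18.1% and 17.5% in Cas9 cells.

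The genes whose mRNA followed the members' mean most closely across the 9 mRNA libraries were IPCEF1, PDE4B, ITGB3, ENSG00000259753 and RNF32, with Pearson's r of 0.975 to 0.977 between log2 CPM and the mean centred log2 CPM of the 6 members tested. This profile followed MX1 most closely of the members, whose level fell to 0 in 1 library, and 198 of 13440 genes reached an r of 0.9, so the likeness is a description of these libraries.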

How the data were processed

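The authors aligned the 36 h reads with hisat2 to GENCODE release 22 and the 72 h reads with tophat to release 25, and tabulated them with fp-count; the processing notes name HISAT2 2.1.0 and GRCh38. The deposited values are raw counts per transcript, beside the coding length in codons, which the authors deposited as another number. Transcripts were matched to genes of GENCODE release 44 (25338 of 26679 at 36 h, 94799 of 98250 at 72 h), and the transcript with the highest summed count was kept per gene and time point, or, between time points, among those listed at both. Reads shared by transcripts or by near-identical genes could not be separated. edgeR 4.0.16 (R 4.3.3) was run on each library type alone, for translational efficiency on both, with TMM, a mean count of at least 10, and Benjamini-Hochberg adjustment over all genes tested. The standard error is the log2 fold change over the root of F. Scripts were tested on simulated data. Members and lists were chosen with earlier results of these data known. Results for some genes of the lists are not reported here. Named in the text are the members, JAK2, up to 4 pathway genes per direction and comparison with the smallest adjusted p, and the 5 genes most like the members. Alternatives were DESeq2 1.42.0, its size factors in edgeR, no count minimum or 20, 1 fit of both library types, the transcript kept at each time point, the replicate block, and each library left out in turn.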

Additional observations from a re-analysis of the deposited data

How the results depend on the processing

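Of 245 member fold changes under other settings than a left-out library, 244 kept their direction and their side of the threshold, and so did all 63 counts of members called. The exception was the difference of the Cas9 effect on IFIT1 footprints between the time points, 0.20 as reported and -0.042 with DESeq2, neither called. Leaving out libraries mattered more, with a change of direction in 34 of 345 fold changes, none of them called. The number of members called changed only in fits that left a lone dCas9 mRNA library at 1 time point. Without dCas9 replicate b of 72 h, Cas9 against dCas9 mRNA at 72 h gave 0.44 for RIGI, 0.35 for IFIT5 and -1.25 for OAS3. Counts over all genes, given below, moved widely with left-out libraries as well. Calls gained in such fits are therefore not read as results about the members. The log2 fold changes of Cas9 against dCas9 mRNA at 36 h ranged from -0.35 to 0.62 for IFIT1, -0.73 to 0.80 for IFIT3, -0.16 to 0.14 for IFIT5, -0.48 to 0.97 for OAS3 and -0.011 to 0.19 for RIGI. At 72 h they ranged from -0.062 to 0.16 for IFIT3, -0.20 to 0.25 for ISG15, -1.25 to 0.15 for OAS3 and -0.10 to 0.44 for RIGI, and for IFIT1 translational efficiency from -0.092 to 0.85. For 72 h against 36 h in dCas9 mRNA they ranged from -0.76 to 0.76 for IFIT3, -0.20 to 0.10 for IFIT5, -1.08 to 0.68 for OAS3 and -0.60 to 6.78 for MX1, the last against a lone library with no read. In Cas9 cells IFIT3 ranged from -0.19 to 0.23, and in dCas9 footprints IFIT5 from -0.070 to 0.23. For the difference of the Cas9 effect in mRNA they ranged from -0.33 to 0.65 for IFIT1, -0.75 to 0.78 for IFIT3, -1.68 to 0.065 for OAS3 and -0.18 to 0.36 for RIGI, and in footprints from -6.13 to 1.13 for IFIT1.

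Same-lettered libraries did not deviate together (correlations of their deviations from -0.080 to 0.055), and the main fits used no pairing. The study divided lysates between the library types, however, and with so few libraries these correlations cannot show that libraries of a shared lysate are independent. With the replicate block no member call changed, with 1 member, IFIT1, called for 72 h against 36 h in Cas9 mRNA (log2 fold change 1.51) and 0 in the other 4 blocked comparisons, while the count over all genes for Cas9 against dCas9 at 72 h went from 307 to 740 in mRNA and from 4 to 7 in footprints. Counts over all genes moved with other settings too. In mRNA at 72 h they were 193 with DESeq2's size factors, 493 without a count minimum and 594 with both library types in 1 fit, and for translational efficiency at 72 h 215 with DESeq2, 163 with its size factors and 260 without a count minimum, against 78. DESeq2 and no count minimum gave 211 and 281 genes for the difference of the Cas9 effect in mRNA, against 32, 342 and 489 for 72 h against 36 h in dCas9 footprints, against 178, and 477 and 715 in Cas9 footprints, against 316. Where at most 4 genes were called, settings other than a left-out library gave 0 to 7. Leaving out 1 library gave 7 to 3092 genes in mRNA at 72 h, 676 to 3764 for 72 h against 36 h in dCas9 mRNA and 2132 to 5375 in Cas9 mRNA. It gave 0 to 601 in mRNA, 0 to 69 in footprints and 0 to 496 in translational efficiency at 36 h, 1 to 41 in footprints and 1 to 1027 in translational efficiency at 72 h, 81 to 1917 in dCas9 and 79 to 1156 in Cas9 footprints between the time points, and 1 to 725 in mRNA and 0 to 3 in footprints for the difference of the Cas9 effect. Footprint depth limits what can be said of 6 of the 9 genes, which were tested in footprints at neither time, 2 of them, IFIH1 and ISG15, because their 36 h transcripts were not matched and their 72 h footprints were few.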
